A study of Mus musculus with 12 samples.

Results

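The genes described here mark newly formed, premyelinating oligodendrocytes, the cells between the dividing precursor and the oligodendrocyte that wraps axons. They are Gpr17, Neu4, Bmp4, Fyn, Enpp6, Tmem163, Rras2, Itpr2, Cnksr3 and Ust, 10 genes of the 17656 measured. They were named as a list, and each was read from its probe set on the array, provided that the probe set is annotated to that gene alone. All 10 had exactly 1 such probe set. The study set side by side the medial prefrontal cortex (mPFC) of 6 homecage (HC) control mice, group-housed throughout, and of 6 mice put through chronic social defeat (CSD). All mice were adult wild-type C57BL/6 males, and each gave 1 Affymetrix Mouse Gene 1.0 ST array made from 200 ng of total RNA. In CSD, a mouse was housed for 14 days beside an aggressive CD-1 male behind a partition and met it for 5 min each day, and the tissue was taken 24 h after the last encounter. The mPFC was dissected along the forceps minor, a white matter tract, and tests of anxiety and sociability decided which stressed mice entered the CSD group. The values are log2 expression values made by the authors with RMA, which brings the arrays to one scale and gives 1 value per probe set, so that a difference of 1 unit is a doubling.

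An oligodendrocyte precursor that stops dividing passes through a short committed stage before it makes myelin. In this stage it switches on the receptor Gpr17, the sialidase Neu4 and the ligand Bmp4, and it then extends processes and turns on genes such as Enpp6, Itpr2 and Tmem163. Most of these genes are turned down again when the cell matures, and new cells of this kind are formed in the adult cortex throughout life. Several of the genes are not restricted to this stage in the brain. Fyn and Tmem163 are also expressed by neurons, and Itpr2 is the main inositol trisphosphate receptor of astrocytes. The tissue was not sorted, so fewer cells of a type and less RNA per cell cannot be told apart.

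Of the 10 genes, 4 had lower means in CSD at an unadjusted limit, by 8.58% to 17.6%, and none passed the adjustment for multiple tests. The other 6 had rounded log2 differences between −0.04 and 0.04. At an unadjusted p under 0.05 in limma (linear models whose variance estimates borrow from all probe sets), Tmem163, Enpp6, Bmp4 and Gpr17 were lower, or 4 of 10, while 6.52% of all measured genes were lower at the same limit. None of the 10 was higher at that limit, where 1.89% of all genes were. The higher share over all genes depended on HC replicate 2, without which 5.74% were higher and 5.52% lower, with 3 of the 10 genes lower. With p-values adjusted (Benjamini-Hochberg) over 29838 probe sets, 0 of the 10 genes passed in limma and 0 in the methods' t-test, and no probe set of the array passed. Over all probe sets, 0.62% were lower and 0.741% higher at an unadjusted p under 0.05 with a fold of at least 1.2. The CSD mean was below the HC mean for 8 of the 10 genes and above it for 2, where 57.1% of all genes had a lower mean. The median log2 difference of the 10 genes was −0.03, beside −0.01 over all measured genes. When HC replicates 2 and 6, whose arrays correlated least with the rest of their group, were left out, 2 of the 10 genes were lower at the unadjusted limit, beside 3.77% of all genes lower and 5.57% higher.

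**Figure D1:**
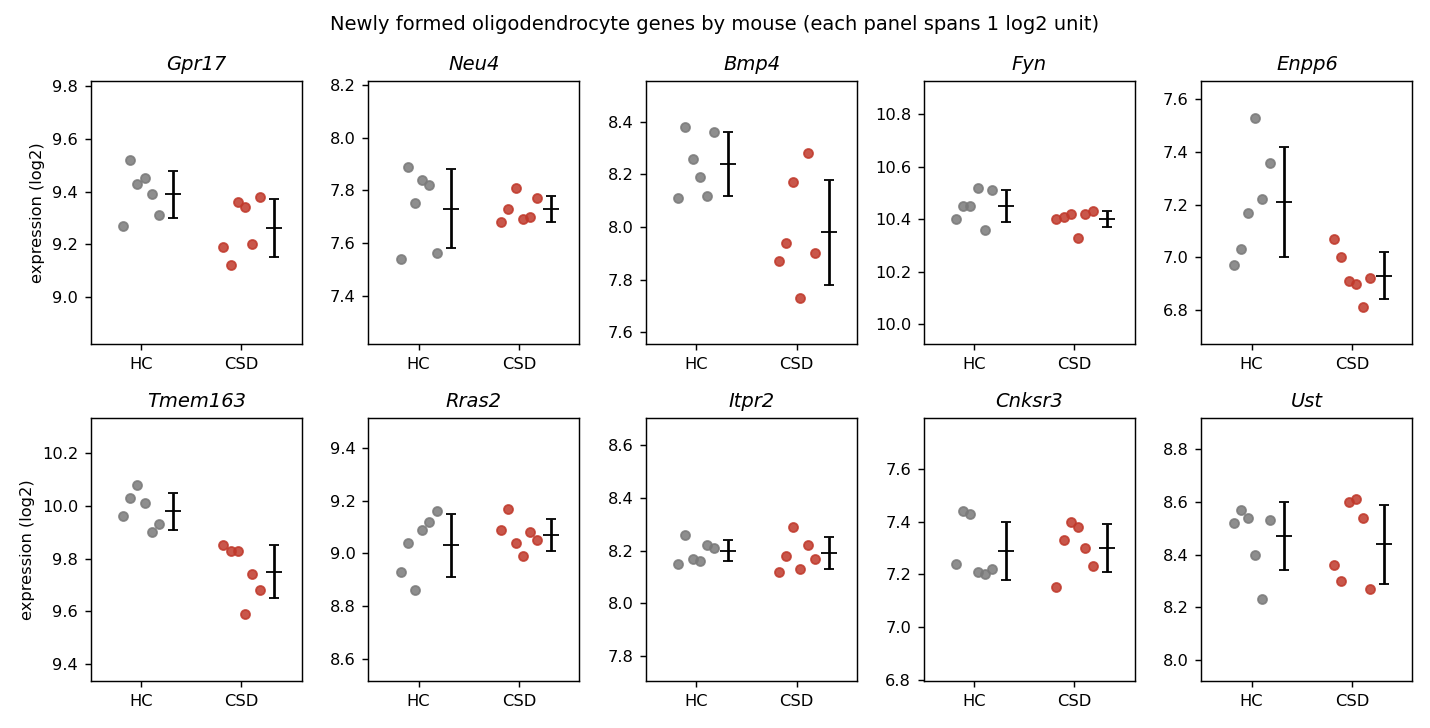
Log2 expression of the 10 genes in each mouse (vertical axis, each panel spans 1 log2 unit), grey for HC and red for CSD, each group with its mean ± SD (n = 6). The groups are apart for Tmem163, 4 CSD points are under the whole HC group for Enpp6 and for Bmp4, and the groups overlap widely for Neu4, Rras2, Itpr2, Cnksr3 and Ust.

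Tmem163 encodes a zinc-binding protein of vesicle and plasma membranes, and it was the gene of the list with the clearest separation. Its log2 values ran from 9.90 to 10.08 with a median of 9.99 in HC, and from 9.59 to 9.85 with a median of 9.78 in CSD. Every CSD mouse was below every HC mouse, a separation shown by 0.935% of all measured genes in this direction and by 0.0793% in the opposite one. The means were 9.98 ± 0.07 (SD, n = 6) and 9.75 ± 0.10 (SD, n = 6), a log2 difference of −0.23 (standard error 0.05), or 14.8% lower. A two-sided exact permutation test returned p = 0.00216, the smallest that 6 mice against 6 allow, and limma gave an unadjusted p of 0.000564 and an adjusted p of 0.179. By its unadjusted p it ranked at place 78 of the measured genes. CSD replicate 8 had the lowest value, and without that array the difference was −0.20.

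Enpp6 encodes a choline phosphodiesterase that is used as a marker of newly forming oligodendrocytes. Its log2 values ran from 6.97 to 7.53 with a median of 7.19 in HC, and from 6.81 to 7.07 with a median of 6.91 in CSD. The CSD mice lay close together, 4 of them below all HC mice, while the HC mice were spread widely and 4 of them lay above all CSD mice. The means were 7.21 ± 0.21 (SD, n = 6) and 6.93 ± 0.09 (SD, n = 6), a log2 difference of −0.28 (standard error 0.09), or 17.6% lower. This was the largest difference of the 10 genes and the only one of them with a fold change of at least 1.2 together with an unadjusted p under 0.05, as seen for 0.6% of all genes on the lower side. A two-sided exact permutation test returned p = 0.0108, and the adjusted p from limma was 0.362. All values of Enpp6 lie below that of the median probe set of the array, 7.56, and its HC mean was the lowest of the 10 genes. When values under 7.50 were raised to that level, its difference was 0.00.

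Bmp4 encodes a secreted ligand that holds back the differentiation of precursors into oligodendrocytes and favours astrocytes. Its log2 values ran from 8.11 to 8.38 with a median of 8.22 in HC, and from 7.73 to 8.28 with a median of 7.92 in CSD. In CSD, 4 mice were below all HC mice and the other two, replicates 7 and 9, were at 8.17 and 8.28, within the HC range. The means were 8.24 ± 0.12 (SD, n = 6) and 7.98 ± 0.20 (SD, n = 6), a log2 difference of −0.25 (standard error 0.09), or 16.2% lower. A two-sided exact permutation test returned p = 0.0281 and limma an adjusted p of 0.448. Without HC replicates 2 and 6 together the difference was −0.19, at an unadjusted p of 0.0954 in limma.

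Gpr17 encodes a G protein-coupled receptor that marks committed cells and slows their maturation. Its log2 values ran from 9.27 to 9.52 with a median of 9.41 in HC, and from 9.12 to 9.38 with a median of 9.27 in CSD. The groups overlapped, although 3 CSD mice were below all HC mice and all 6 were below the HC mean. The means were 9.39 ± 0.09 (SD, n = 6) and 9.26 ± 0.11 (SD, n = 6), a log2 difference of −0.13 (standard error 0.06), or 8.58% lower. This gene stood at the limit, with p = 0.0402 unadjusted in limma, an adjusted p of 0.562 in limma, and p = 0.0519 in the exact permutation test, two-sided. Its difference kept its sign when any single array was left out, between −0.15 and −0.10, while its unadjusted p was under 0.05 in 14 of the 25 alternatives tried.

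The start regions of Tmem163, Enpp6 and Bmp4 are shown, the 3 of the 10 genes with the largest differences between the group means. RefSeq windows of 300 bases, 250 before and 50 after the annotated start, were given for 9 of the 10 genes. The windows were searched on both strands for the SOX motif (ACAAAG or ACAATG), the kind bound by Sox10, and for the E-box (CANNTG), the kind bound by Olig2, and matches are in capitals. All are given 5′ to 3′ along the gene in the build GRCm38.p6, at chr1:127677972-127678271 on the minus strand for Tmem163, chr8:46986637-46986936 on the plus strand for Enpp6 and chr14:46390620-46390919 on the minus strand for Bmp4.
Tmem163: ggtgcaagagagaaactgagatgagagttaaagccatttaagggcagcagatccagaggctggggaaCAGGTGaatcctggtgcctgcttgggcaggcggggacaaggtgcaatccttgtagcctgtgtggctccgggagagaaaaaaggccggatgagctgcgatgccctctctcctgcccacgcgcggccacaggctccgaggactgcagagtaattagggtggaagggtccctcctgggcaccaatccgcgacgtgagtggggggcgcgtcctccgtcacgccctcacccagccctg
Enpp6: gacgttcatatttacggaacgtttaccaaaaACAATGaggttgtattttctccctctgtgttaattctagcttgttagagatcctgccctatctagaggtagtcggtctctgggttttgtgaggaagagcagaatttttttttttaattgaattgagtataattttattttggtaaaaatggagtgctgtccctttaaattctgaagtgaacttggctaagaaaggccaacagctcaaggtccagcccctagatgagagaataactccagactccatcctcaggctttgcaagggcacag
Bmp4: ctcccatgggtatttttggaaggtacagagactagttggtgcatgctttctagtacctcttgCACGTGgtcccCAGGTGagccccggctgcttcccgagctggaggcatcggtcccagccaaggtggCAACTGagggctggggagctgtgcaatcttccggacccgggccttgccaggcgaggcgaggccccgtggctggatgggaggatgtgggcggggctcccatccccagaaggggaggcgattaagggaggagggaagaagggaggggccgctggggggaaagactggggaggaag
The Tmem163 window holds 1 E-box and no SOX motif, the Enpp6 window 1 SOX motif and no E-box, and the Bmp4 window 3 E-boxes and no SOX motif, so that no motif searched was common to the 3 windows. Over the 9 genes, 2 windows hold a SOX motif and 7 an E-box, while 28.6% and 72.3% of all 32851 RefSeq windows do. The Enpp6 window is the one with the fewest G and C bases, 40.3%, against 61.7% for Tmem163, 64.0% for Bmp4, up to 73.3% among the 9 genes and a median of 52.7% over all windows. These matches describe the sequence only.

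The other 6 genes had means close to the HC level, and their 95% intervals from limma show how large a difference the data leave possible. Fyn, a tyrosine kinase of the Src family that starts myelin gene translation after axon contact, ran from 10.36 to 10.52 with a median of 10.45 in HC and from 10.33 to 10.43 with a median of 10.42 in CSD. All 6 CSD mice were below the HC mean, yet the log2 difference was only −0.04 (95% interval −0.12 to 0.03, exact permutation p = 0.162, two-sided). Rras2, a small GTPase related to Ras, was the highest of the list in its difference, at 0.04 (95% interval −0.08 to 0.15). Its values ran from 8.86 to 9.16 with a median of 9.06 in HC and from 8.99 to 9.17 with a median of 9.06 in CSD, so that the groups overlapped.
Neu4, a sialidase that trims sialic acid from glycans, had a mean of 7.73 in each group, with a 95% interval of −0.14 to 0.13 for the difference. The HC mice were spread more widely, from 7.54 to 7.89, than the CSD mice, from 7.68 to 7.81. Itpr2, a calcium release channel of the endoplasmic reticulum, had a log2 difference of −0.01 (95% interval −0.09 to 0.07), with values from 8.15 to 8.26 in HC and from 8.12 to 8.29 in CSD. Cnksr3, a scaffold protein of kinase signalling, had a difference of 0.01 (95% interval −0.12 to 0.14), with values from 7.20 to 7.44 in HC and from 7.15 to 7.40 in CSD. Ust, a sulfotransferase of dermatan and chondroitin sulfate, had a difference of −0.02 (95% interval −0.19 to 0.15), with values from 8.23 to 8.57 in HC and from 8.27 to 8.61 in CSD.

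The list was then placed between the earlier and later stages of the lineage, using gene lists of precursors, of other committed and newly formed cells and of mature oligodendrocytes. Over all measured genes, 57.1% had a lower mean, and 6.52% were lower and 1.89% higher at an unadjusted p under 0.05 in limma. All 25 measured genes of the mature list were lower in CSD, 23 of them at an unadjusted p under 0.05 in limma, with a median log2 difference of −0.50. This list was chosen with earlier results of these data known. The study had reported many of its genes, such as Mog and Ermn, as reduced on these same arrays. Its counts and median are therefore no independent result. The smallest p in the mature list were those of Plekhb1, at −0.36, and of the connexin gene Gjc3, at −0.68, each with an adjusted p of 0.0673 from limma. Of 17 precursor genes 10 were lower and 7 higher, with 3 lower and 0 higher at an unadjusted p in limma and a median of −0.03. Pdgfra, the receptor for platelet-derived growth factor, had a log2 difference of 0.01 (95% interval −0.13 to 0.15). Cspg4, the NG2 proteoglycan, had one of 0.04 (95% interval −0.08 to 0.16). Both genes were chosen after their values were seen, so they do not stand for the precursor list. The precursor genes with the smallest p were Ednrb, an endothelin receptor that astrocytes also express, at −0.26, and Lhfpl3 at −0.13, with an adjusted p of 0.241 and 0.461 in limma.
Of 18 other genes of committed and newly formed cells 14 were lower and 4 higher, with 5 lower at an unadjusted p in limma and a median of −0.06. The gene of this list with the largest difference was Bcas1, a protein of early myelinating cells that myelin also retains, at −0.59 (standard error 0.12, adjusted p = 0.156 from limma), and −0.10 once the mature mean was subtracted as described next. Every CSD mouse was below every HC mouse for Bcas1, as for 0.935% of all measured genes. Its measured mean went from 9.21 ± 0.29 (SD, n = 6) to 8.62 ± 0.16 (SD, n = 6). The other 4 were Slc12a2, a sodium, potassium and chloride cotransporter, at −0.23, Tmem108 at −0.15, Tcf7l2, a Wnt-responsive transcription factor of newly formed cells, at −0.13, and Frmd4a at −0.10. All 9 lineage transcription factors had lower means, 6 of them at an unadjusted p in limma, with the smallest p for Olig2 at −0.33 and Sox10 at −0.21 (adjusted p = 0.0986 and 0.171 from limma).

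**Figure D2:**
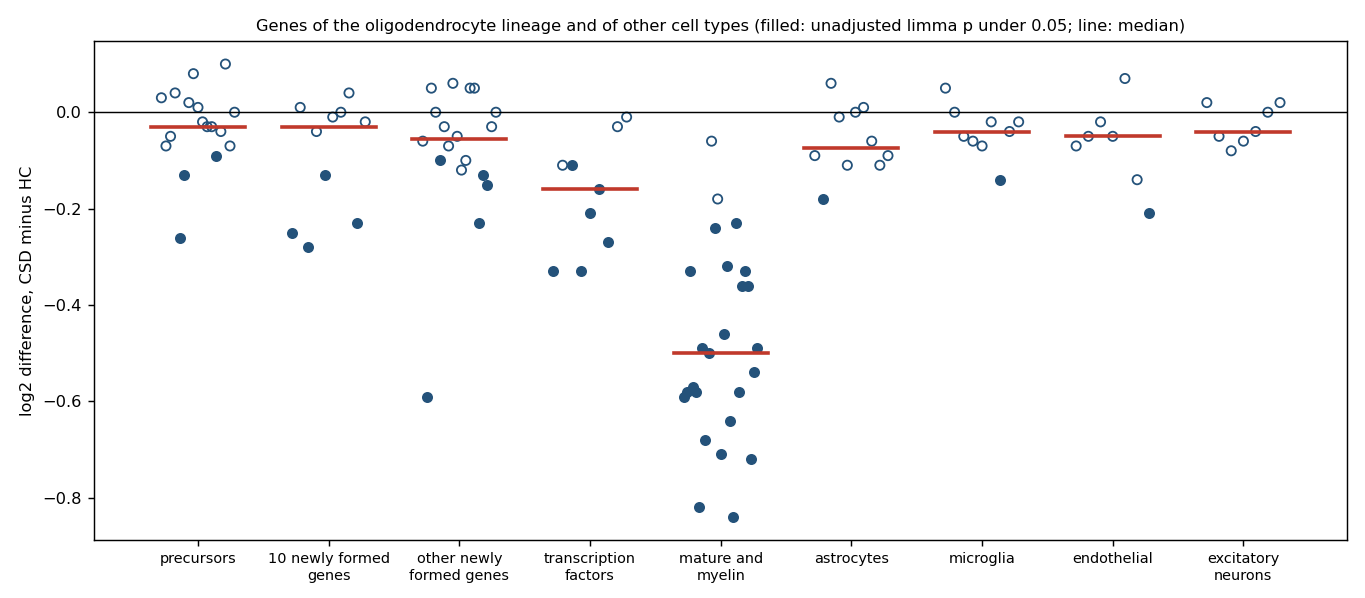
Log2 difference, CSD minus HC (vertical axis), of each measured gene of the lineage lists and of 4 lists of other cell types. Filled points have an unadjusted limma p under 0.05, open points do not, and lines give list medians, at −0.03 for the precursors and for the 10 newly formed genes and at −0.50 for the mature list.

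Each gene was also tested against the mature list itself. The mean of the 25 mature genes was subtracted from every probe set on each array and the limma fit was repeated over all probe sets, so that a positive value means a smaller loss in CSD than the mature genes had. On this scale 98.9% of all measured genes were higher at an adjusted p under 0.05, so a call shows only a difference smaller than the mean loss of the mature list. Of the mature list itself 4 of 25 genes were called in this way, and 6 of the 9 lineage transcription factors. The mature genes make up the subtracted mean, so their relative differences centre near 0 by construction (median −0.01). Their count is therefore no comparison for the 10 genes. Of the 10 genes 8 were called higher and 0 lower, where 0.017% of all genes were lower, with relative differences from 0.26 for Tmem163 to 0.52 for Rras2. The 2 that were not called were Enpp6, at 0.21 (95% interval −0.03 to 0.45, adjusted p = 0.0921 in limma), and Bmp4, at 0.23 (95% interval −0.02 to 0.49, adjusted p = 0.075 in limma). For these genes a loss as large as that of the mature list lies within the interval. Enpp6 was called under the methods' t-test (adjusted p = 0.0192), which gave 9 genes in all. It was also called with array weights (adjusted p = 0.0195 in limma), which gave 10, and at a higher noise level that all but 1 of its values lie below (adjusted p = 0.000146 in limma). Tmem163 passed narrowly, at an adjusted p of 0.0435 in limma, which was lost without HC replicate 4, 5 or 6 and without CSD replicate 2, 7, 8, 9 or 10, at an adjusted p between 0.0509 and 0.126. Bmp4 passed without HC replicate 2 (adjusted p = 0.0199 in limma) and without CSD replicate 6 (adjusted p = 0.0385). Gpr17 was at 0.36 (95% interval 0.10 to 0.62, adjusted p = 0.00786 in limma). Its relative difference kept its sign in each of 25 alternatives, and its adjusted p was under 0.05 in 24 of them.

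**Figure D3:**
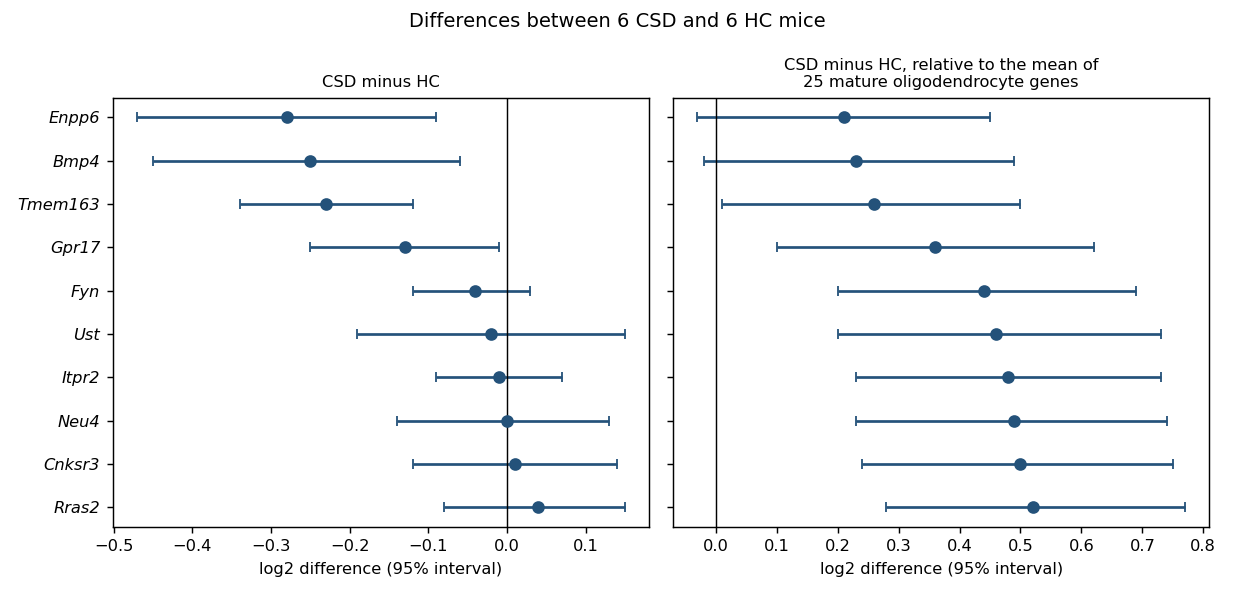
Log2 differences of the 10 genes between 6 CSD and 6 HC mice with 95% intervals from limma (horizontal axes), as measured on the left and relative to the mean of 25 mature oligodendrocyte genes on the right. On the left the intervals of Enpp6, Bmp4, Tmem163 and Gpr17 lie below 0, and on the right those of Enpp6 and Bmp4 include 0.

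The mice of a group also differed among themselves in their mature genes, which allowed each gene to be followed within a group. The mean of the mature list ran from 9.54 to 9.95 in HC and from 9.05 to 9.46 in CSD, without overlap, and its part in the differences of the 10 genes was not tested. Among the 6 HC mice, Enpp6 followed the mature mean at Pearson's r = 0.97 (exact permutation p = 0.00278) and Spearman's rho = 1.0 (exact permutation p = 0.00278). With 20 relations examined, 10 genes in 2 groups, the adjusted p was 0.0556, and without the 2 mice farthest from the median r was 1.0 over the remaining 4. Among the 6 CSD mice the relation did not pass, at r = 0.44 (exact permutation p = 0.396) and rho = 0.37 (exact permutation p = 0.497), with r = 0.40 without the 2 farthest mice, and the difference between the groups was not tested.
Tmem163 followed the mature mean among the CSD mice at r = 0.87 (exact permutation p = 0.0431, adjusted p = 0.431 over the relations) and rho = 0.77 (exact permutation p = 0.103), with r = 0.92 without the 2 farthest mice. Among the HC mice it did not, at r = −0.23 (exact permutation p = 0.635) and rho = −0.26 (exact permutation p = 0.658), with r = −0.64 without the 2 farthest. Gpr17 showed no such relation in HC, at r = −0.03 (exact permutation p = 0.954) and rho = 0.20 (exact permutation p = 0.714), and r = −0.57 in CSD (exact permutation p = 0.192) with rho = −0.66 (exact permutation p = 0.175). Without the 2 farthest mice r for Gpr17 was −1.0 in HC and 0.03 in CSD, over 4 mice each. None of the 20 relations passed the adjustment.

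**Figure D4:**
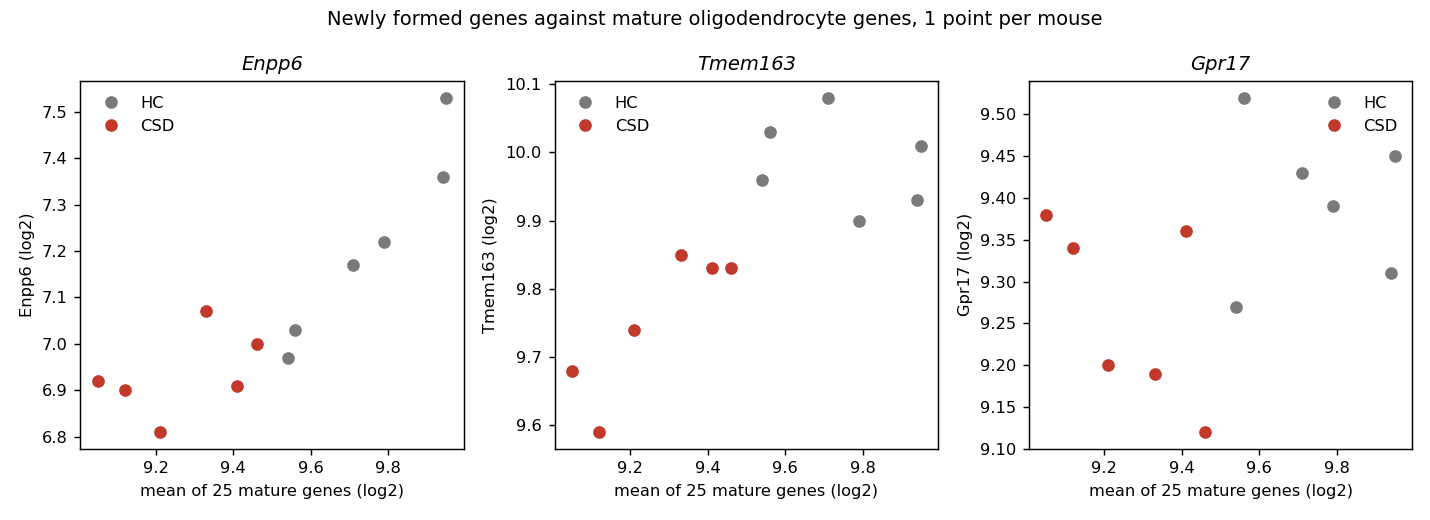
Log2 expression of Enpp6, Tmem163 and Gpr17 (vertical axes) against the mean of 25 mature oligodendrocyte genes (horizontal axes) in each mouse, grey for HC and red for CSD. Enpp6 rises with the mature mean among the HC mice (r = 0.97), and Gpr17 has no such order.

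The 10 genes did not vary as a block from mouse to mouse. After the group means were removed, the 45 pairs of genes had a median Pearson's r of 0.17 over the 12 arrays, from −0.51 to 0.76, with 6 pairs above 0.5 and 12 below 0. The highest were Bmp4 with Itpr2 at 0.76 and the committed-stage genes Gpr17 with Neu4 at 0.70, while Bmp4 had r = 0.04 with Gpr17 and 0.16 with Neu4. The lowest was Rras2 with Cnksr3 at −0.51. These values describe 12 arrays that share their normalization, and no test was made of them.
Of all measured genes, those most like Enpp6 by the same measure were Ppp2r5c, a regulatory subunit of protein phosphatase 2A, and Gm10635 at 0.92 and Bcas1 at 0.90. For Tmem163 they were Tspan4, a tetraspanin, at 0.88, Dbp, a clock output transcription factor, at 0.85 and Dnajc19 at 0.84. For Bmp4 they were Hykk at 0.91 and Heatr6 and Proser1 at 0.90, and for Gpr17 they were Cd52 at 0.93 and Hmx1 and Exo1 at 0.89. Of the 30 nearest genes of the 10, 3 for each, Bcas1 alone was in an oligodendrocyte list and 0 were among the 10. All 30 had r from 0.84 to 0.95. Each was picked as a maximum over all measured genes on 12 arrays, which favours high values, and was not tested.

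The BMP pathway was examined beyond its ligand Bmp4. BMP ligands bind type I and type II receptors, which phosphorylate SMAD proteins that turn on targets such as the Id genes, and secreted inhibitors bind the ligands. Of 37 measured genes of these lists 26 were lower and 11 higher, with 2 lower and 1 higher at an unadjusted p under 0.05 in limma and a median of −0.02. A lower mean was found for 57.1% of all measured genes. The counts at the limit are near the shares over all measured genes, of which 6.52% were lower and 1.89% higher there. The genes named next therefore do not set the pathway apart. All 8 genes of the SMAD list had lower means, with a median of −0.08. Chrd, the secreted BMP inhibitor chordin, was the higher one, with HC at 8.21 ± 0.07 (SD, n = 6) and CSD at 8.42 ± 0.12 (SD, n = 6), which differ by 0.21 on the log2 scale (standard error 0.06, adjusted p = 0.288 from limma). Hey1, a transcriptional repressor downstream of Notch and BMP, was at −0.12 with every CSD mouse below every HC mouse, and Smad5 was at −0.14 (adjusted p = 0.317 and 0.534 from limma). The direct targets Id1 and Id2 had differences of 0.03 and −0.01, and the inhibitor Nog one of 0.05, none at an unadjusted p under 0.05 in limma. Id1, Id2 and Nog were chosen after their values were seen. None of the 7 other ligands and 7 receptors was at that limit.

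Relatives and partners of the other genes are given by the same limit, which 6.52% of all genes passed on the lower and 1.89% on the higher side, with 0.935% of all genes having every CSD mouse below every HC mouse and 57.1% a lower mean. Of 17 signalling partners of Fyn 14 had lower means, and the unadjusted limit in limma was passed by 1, the phosphatase Ptpn11 at −0.10, for which every CSD mouse was below every HC mouse (adjusted p = 0.312 from limma). Of 4 measured Src family kinases none was at that limit. Of 5 measured small Ras GTPases 2 were lower at that limit. Rras, the closest relative of Rras2 in the list, was at −0.20 (standard error 0.05, adjusted p = 0.235 from limma) with every CSD mouse below every HC mouse. Nras was at −0.11, whereas Rras2 itself was at 0.04. Of 10 measured relatives and coupling partners of Gpr17 2 were lower at that limit. These were the receptors P2ry13 and P2ry12, which microglia express, at −0.23 and −0.14 (adjusted p = 0.368 and 0.561 from limma).
Of 2 other measured genes of the Enpp6 family 1 was lower at that limit, Enpp4 at −0.16 (adjusted p = 0.368 from limma). Of 7 measured genes listed with the calcium release channels 2 were higher at the limit, Ryr1 and Ryr3 at 0.11 and 0.09 (adjusted p = 0.563 and 0.582 from limma). Of 4 scaffolds related to Cnksr3 1 was higher, Cnksr2, which neurons express, at 0.07 (adjusted p = 0.591 from limma). Of 3 sialidases, 9 zinc transporters and 14 enzymes of chondroitin and dermatan sulfate, none was at an unadjusted p under 0.05 in limma.

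Markers of other cells that could carry these genes are given beside the share of all genes with a lower mean, 57.1%, and with a lower mean at the unadjusted limit, 6.52%. Of 10 astrocyte markers 8 were lower, 1 of them at an unadjusted p in limma (Aqp4 at −0.18), and the list mean ran from 10.27 to 10.51 in HC and from 10.30 to 10.40 in CSD. Of 9 microglia markers 8 were lower and 1 was at that limit (P2ry12), with a list mean from 8.84 to 9.02 in HC and from 8.81 to 8.92 in CSD. Of 7 endothelial markers 6 were lower and 1 was at that limit (Tek at −0.21, with the groups apart, a difference about as large as that of Tmem163), with a list mean from 8.52 to 8.78 in HC and from 8.41 to 8.66 in CSD. Of 7 markers of excitatory neurons 5 were lower and 0 were at that limit, with a list mean from 11.35 to 11.58 in HC and from 11.36 to 11.49 in CSD. Lower means were found for 7 of 8 markers of inhibitory neurons, 5 of 6 of choroid plexus, 5 of 9 of pericytes and meninges and 0 of 2 of red blood cells, with 0 at that limit in each list. Of 6 markers of striatal neurons 5 were lower and 1 was at that limit, Drd1 at −0.16. The ranges of the groups overlapped for each of these lists, and their part in the differences of the 10 genes was not tested. The medians of the arrays lay between 7.50 and 7.69, and HC replicate 2 had the highest.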

How the data were processed

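The deposited values, 1 array per mouse for 12 mice, are log2 intensities of 35556 probe sets that the authors obtained by RMA (Expression Console, versions not given in the sources used here). Arrays have no read depth, and their number limits the precision. The methods place system noise where a LOWESS fit of variation on mean becomes linear, for which a span of 0.2 was taken here. A straight line accounted for a share of 0.999 of the curve only above 10.19, past the median of 7.56, so the percentile 20 of all values, 5.75, was used. Probe sets with a value above it were kept (29838) and lower values, 4.67%, raised to it.

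CSD was compared with HC in limma 3.58.1 (R 4.3.3) without covariates. The p-values were adjusted by Benjamini-Hochberg across every probe set kept, with 0.05 as the limit, joined by a fold of 1.2 where probe sets were counted, and single genes were also compared with two-sided exact permutation tests. The fit was tried on simulated data with independent noise, which lack any variation that the probe sets of a real array share. The platform annotation names 1 gene for 21789 probe sets, and the brightest stood for a gene. The 10 genes and all lists were chosen with earlier results of these data known. Genes named are the 10, the members of lists with the smallest p or at an unadjusted p under 0.05, and the 3 genes most alike. Pdgfra, Cspg4, Id1, Id2 and Nog were chosen after their values were seen. Promoter windows are from RefSeq (GRCm38.p6). Alternatives covered the test, floor, filter, noise level, probe sets tested, scaling, variance model, array weights, replicate number, probe sets per gene, fold limit and single arrays.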

Additional observations from a re-analysis of the deposited data

Results flagged for a closer look

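For Fyn, CSD replicate 8 was the lowest of its group, at 10.33, and the gap to the next array, at 10.40, made up 0.71 of the CSD range, more than Dixon's 95% value for 6 samples, 0.625. Of the 20 groups of values examined, 1 passed this limit, and chance flags about 5% of groups. The same array also had the lowest value of its group for Tmem163, Bmp4 and Rras2, and the highest for Ust.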

How the results depend on the processing

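Tmem163, Enpp6, Bmp4 and Gpr17 kept a lower or equal mean in CSD under each of the 25 alternatives, and 0 of the 10 genes passed the adjustment in any of them. Their unadjusted p stayed under 0.05 in 24 alternatives for Tmem163, 24 for Bmp4, 23 for Enpp6 and 14 for Gpr17. With system noise at 7.50, the level from which a line accounted for a share of 0.99 of the curve (chosen after seeing the data), Enpp6 had 1 value above noise and a difference of 0.00, and Cnksr3 was left out. The number of lower genes among the 10 went from 4 to 2 without HC replicates 2 and 6 together and to 1 with the replicate number as a block. The cause was not tested.

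The block rests on the replicate numbers 2 and 6, the only ones in both groups, whose arrays had correlations of −0.21 and −0.035 between their deviations from the group means, so the numbers do not pair the mice. With the replicate block the number of genes called relative to the mature list was 0 in place of 8, the relative difference of Bmp4 was −0.11 and that of Cnksr3 as measured −0.09, and 670 probe sets in place of 406 passed at an unadjusted p with a fold of at least 1.2. That count was 222 at the higher noise level, 127 with the test restricted to single-gene probe sets, 2516 with no fold limit and 20 at a fold limit of 1.5. After adjustment 21 probe sets passed under that restriction, 1 with quantile normalization and 14 when limma modelled a robust trend of variance on mean, against 0.

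Differences near 0 changed sign. Cnksr3 was at 0.00 with arrays centred on their medians and −0.01 with quantile normalization, Itpr2 at 0.01 with array weights or without HC replicates 2 and 6 together, Neu4 at 0.03 with array weights and Ust at 0.02 without HC replicates 2 and 6 together. Leaving out single arrays gave −0.01 to 0.04 for Cnksr3, −0.03 to 0.00 for Itpr2, −0.04 to 0.03 for Neu4 and −0.07 to 0.01 for Ust.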
